A study of Mus musculus with 16 samples.

Results

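Etomoxir given alone was compared with vehicle in differentiated mouse brown adipocytes by RNA-seq. The samples were picked by the names of their count columns, 3 for etomoxir (replicates 1, 2 and 3) and 2 for vehicle (replicates 2 and 3), which makes 5 of the 16 samples of the series. The study asked whether fatty acids freed by lipolysis must be activated or oxidized to change gene expression. Etomoxir alone shows how cells given this inhibitor without stimulation differ from vehicle cells, and these data do not measure oxidation. In the labels the cells are a wild type brown preadipocyte line, immortalized by SV40 large T antigen, that was differentiated with dexamethasone, 3-isobutyl-1-methylxanthine, T3 and insulin and used on day 7. Cells of the etomoxir group received 50 µM etomoxir as a pretreatment of 1 h and were cultured for 3 h more without SR-3420, and vehicle cells received neither agent. Of the other groups, the 2 SR-3420 samples (replicates 1 and 3) received 10 µM of that agent by the labels for 3 h, and the 3 samples with etomoxir + SR-3420 received it after the same etomoxir pretreatment. The 3 triacsin C samples (labelled Triascin C) were pretreated for 1 h with 5 µM of that inhibitor, and the 3 samples with triacsin C + SR-3420 had this pretreatment and then SR-3420 at 10 µM. A single cell line, dose and time was measured, so nothing here speaks of other doses or times.

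Long-chain fatty acids enter mitochondria as acylcarnitines, which carnitine palmitoyltransferase 1 (CPT1) makes at the outer membrane, and etomoxir blocks this enzyme, while triacsin C blocks the acyl-CoA synthetases that act before it. Brown adipocytes oxidize fatty acids from their lipid droplets to make heat, and free fatty acids are also ligands of the PPAR receptors, which switch on genes of fat use. Stressed or amino acid-starved cells make the transcription factor ATF4, whose targets include amino acid transporters and the hormone FGF21, and cells low in sterols activate SREBP2, which switches on cholesterol synthesis. At high concentrations etomoxir is known to have targets besides CPT1.

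Reads assigned to genes summed to 14032494 and 10097582 counts in vehicle replicates 2 and 3 and to 14993463, 11813662 and 10993504 counts in etomoxir replicates 1, 2 and 3. In vehicle replicate 2 a count was found for 15961 genes, and in vehicle replicate 3 for 14182 of the 20295 genes of the table. Pearson's r of log2 normalized counts across the 12786 genes tested was 0.973 between the vehicle samples and 0.949 to 0.985 between pairs of etomoxir samples. Genes are not independent replicates, so r describes how alike the libraries are and no more. Between the groups r ran from 0.948 (vehicle replicate 2 with etomoxir replicate 3) to 0.991 (vehicle replicate 2 with etomoxir replicate 1). The vehicle samples were thus no more like each other than like some etomoxir samples. In the 10646 genes that averaged 50 or more normalized counts, the vehicle samples differed from each other by a median of 0.34 on the log2 scale, and the group means by a median of 0.11. These measures are unlike, since means of 2 and 3 samples vary less than single samples do. Normalized counts here and below are counts divided by the size factors of DESeq2.

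The label of adipocytes was checked with marker genes. All 12 listed markers of mature adipocytes were tested, and their normalized counts summed to 535595 and 420444 in the vehicle samples and to 529206, 426165 and 422883 in the etomoxir samples. Cfd, which encodes the secreted protease adipsin, had the highest normalized count among them, with a mean of 162254. Markers of preadipocytes and fibroblasts were also present, 10 of 11 of them tested, summing to 36269 and 33154 with vehicle and to 43876, 32865 and 23773 with etomoxir, with Col1a1, a collagen gene, at the top. Etomoxir replicates 1 and 3 were the highest and the lowest of the 5 samples in that sum, and the part of these genes' cells in the results was not tested. Of 10 leukocyte markers 4 were tested, the most abundant being Cd14 with a mean of 93.6, of 8 endothelial markers 2 (Vwf, 21.3), and of 11 skeletal muscle markers 3 (Des, 99.4), with Myf5, a myogenic factor, at 0 counts. The thermogenic genes were uneven: the uncoupling protein gene Ucp1 had 27.2 and 6.43 normalized counts with vehicle and 29.9, 9.80 and 14.1 with etomoxir, Dio2, the deiodinase that makes active thyroid hormone in brown fat, had 0 counts in all 5 samples, and the β3-adrenergic receptor gene Adrb3 was abundant, with a mean of 8240. The cells thus carried a clear adipocyte profile with very little Ucp1 RNA in either group.

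Etomoxir without stimulation asks which transcripts differ from vehicle in cells at rest. In the reported fit, which has no covariate, few transcripts differed, and most differences were smaller than their error. A model of all 16 samples in 6 groups, fitted with edgeR, gave each gene a log2 fold change, etomoxir minus vehicle, and a p-value that was adjusted by Benjamini and Hochberg's method for the 12786 genes tested, and a gene is called raised or lowered where the adjusted p is under 0.05. Called raised were 2 genes (0.0156% of the genes tested), Hmox1 and Fgf21, and 1 gene was called lowered (0.00782%), Bmf. At an unadjusted p under 0.05, 116 genes were higher (0.907%) and 167 were lower (1.31%), 283 in all. This balance depended on single samples, with 153 higher and 59 lower without vehicle replicate 2 and 124 and 108 without etomoxir replicate 3. More genes passed where edgeR was given the replicate number as a block, 560 higher and 665 lower at an unadjusted p under 0.05. That fit called 4 genes raised and 2 lowered, though the labels do not say what a number stands for. All 3 etomoxir samples lay above both vehicle samples for 592 genes (4.63%) and below both for 681 genes (5.33%). The median log2 fold change over all genes was 0.01 and the median size 0.13, against a median standard error of 0.26.

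A near-silent comparison has to be read with its precision. The 95% interval of the log2 fold change lay wholly between -1 and 1 for 9309 genes (72.8%), and for 8973 of the 10646 genes that averaged 50 or more normalized counts (84.3%). For those genes a change of more than 2-fold was thus outside the interval, while smaller changes were often within it. In the same 10646 genes, 6 had a log2 fold change of at least 1 in size: Hmox1, Slc7a11, Lars2 and Arhgef37 were higher and Bmf and Smtnl2 lower. Among them Lars2, the mitochondrial leucyl-tRNA synthetase gene, had 4742 and 5569 normalized counts with vehicle and 27146, 4125 and 4830 with etomoxir. Its log2 fold change of 1.23 thus came from etomoxir replicate 1, and without that sample it was -0.22. Arhgef37 (1.07) and Smtnl2 (-1.07) had an adjusted p of 1.00.

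**Figure D1:**
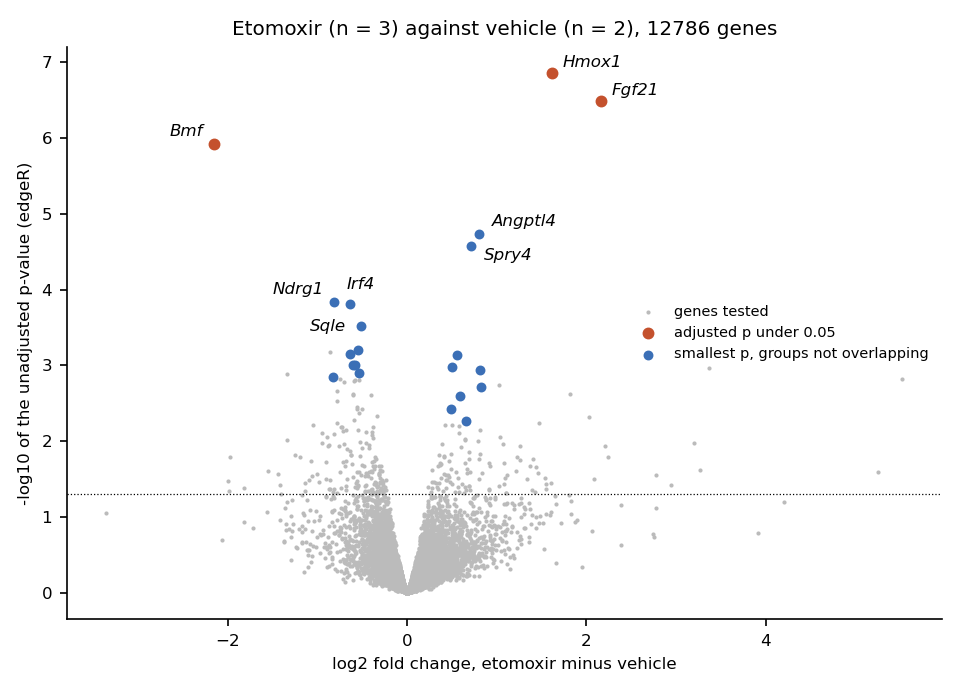
Each point is a gene, with its log2 fold change (etomoxir minus vehicle) across and the negative log10 of its unadjusted edgeR p-value upward, and the dotted line marks the unadjusted threshold. Hmox1, Fgf21 and Bmf stand apart at the top, the blue points are the further genes with the smallest p whose groups do not overlap, and the widest fold changes at low height belong to genes with few counts.

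The plot of fold changes against p-values shows this shape: a narrow column of genes around 0 and 3 points far above it. Heme oxygenase 1, encoded by Hmox1 (NM_010442, chr8:77617517-77624492, plus strand, mm9, 5 exons), degrades heme and is induced by oxidative and other stress. Its normalized counts were 3425 and 3187 with vehicle and 10772, 10054 and 9681 with etomoxir. All etomoxir samples lay about 3-fold above both vehicle samples. The means were 3306 ± 168 (SD, n = 2) and 10169 ± 554 (SD, n = 3), and the log2 fold change was 1.62 (SE 0.16, 95% interval 1.27 to 1.97, edgeR adjusted p 0.00179).

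Fgf21 (NM_020013, chr7:52869260-52870860, minus strand, 3 exons) encodes a hormone that fat and liver release when fatty acids are mobilized or when ATF4 is active. It had 12.1 and 7.71 normalized counts with vehicle and 44.4, 47.9 and 44.6 with etomoxir, so the gene was low throughout and the groups were far apart. The log2 fold change was 2.16 (SE 0.23, 95% interval 1.66 to 2.66, edgeR adjusted p 0.0021). Bmf (NM_138313, chr2:118354493-118375414, minus strand, 5 exons) encodes a BH3-only protein that promotes apoptosis. Vehicle samples held 318 and 278 normalized counts of it, and etomoxir samples 64.3, 66.4 and 70.5. Every etomoxir sample was far below both vehicle samples, with a log2 fold change of -2.15 (SE 0.26, 95% interval -2.71 to -1.60, edgeR adjusted p 0.00521). In bulk RNA, a lower level of a transcript per cell and fewer cells that carry it cannot be told apart.

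These calls depended on the pooled spread of all groups and on single samples, while the fold changes themselves moved less. Without vehicle replicate 3 none of the 3 was called by edgeR, each with an adjusted p of 0.0622, and log2 fold changes were 1.56 for Hmox1, 1.90 for Fgf21 and -2.25 for Bmf. Fitted to the 5 compared samples alone, edgeR called 0 genes, with 115 at an unadjusted p under 0.05, and gave adjusted p-values of 0.307 for Hmox1, 1.00 for Fgf21 and 0.307 for Bmf. Bmf also lost its call without vehicle replicate 2 (adjusted p 0.121), without etomoxir replicate 1 (0.0507) and without etomoxir replicate 2 (0.0622). Its adjusted p ranged from 1.87e-15 to 0.307 over all alternatives, against 5.17e-37 to 0.307 for Hmox1 and 4.00e-05 to 1.00 for Fgf21. DESeq2's Wald test in the same 6 groups called 7 genes raised and 10 lowered. Beside the 3 genes above these were Angptl4, Prelp, Slc7a1, Spry4 and Trib3 among the raised and Ctdsp2, Fdft1, Fdps, Fosl2, Irf4, Jarid2, Ndrg1, Rap1gap2 and Sqle among the lowered.

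**Figure D2:**
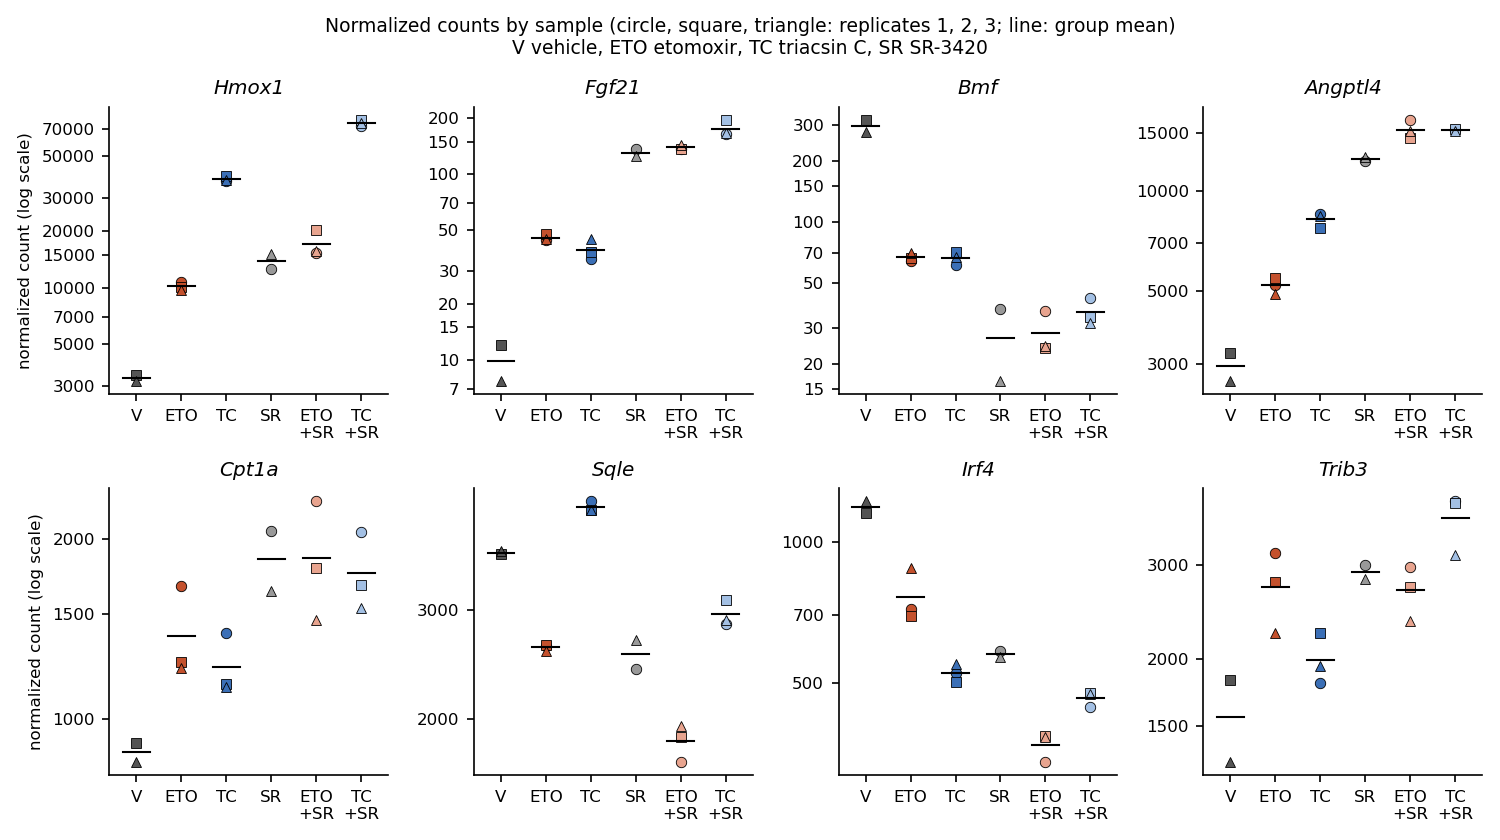
Normalized counts on a log scale of selected genes in all 16 samples, by group, with the replicate shown by the symbol and the group mean by a line. For Hmox1, Fgf21, Angptl4, Cpt1a and Trib3 the 3 etomoxir samples lie above both vehicle samples, and for Bmf, Sqle and Irf4 they lie below.

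The plot of counts by sample sets these values beside the other groups. The next genes by p-value whose groups did not overlap are described here with their values, and none was called in the reported edgeR fit. Angptl4 (NM_020581, 7 exons) encodes an inhibitor of lipoprotein lipase and is a PPAR target. It had 3254 and 2671 normalized counts with vehicle and 5217, 5482 and 4896 with etomoxir, a log2 fold change of 0.81 (SE 0.12, edgeR adjusted p 0.0599). The samples did not overlap, and edgeR with DESeq2's size factors put the adjusted p at 0.0476, within a range of 7.70e-10 to 1.00 over all alternatives. For Spry4, an inhibitor of receptor tyrosine kinase signalling, the counts were 769 and 735 against 1146, 1266 and 1301 (log2 fold change 0.71, SE 0.11, adjusted p 0.0677). With a block for the replicate number edgeR called both Angptl4 and Spry4, each with an adjusted p of 0.0128. Cyp26b1, a retinoic acid hydroxylase that the study names, had 73.6 and 69.4 with vehicle and 135, 130 and 116 with etomoxir (log2 fold change 0.82, SE 0.21, adjusted p 0.888). Prelp, a gene of an extracellular matrix proteoglycan, had 879 and 827 against 1213, 1286 and 1124, and Trim16, a ubiquitin ligase gene, had 155 and 177 against 234, 237 and 229. In the clock repressor gene Ciart, the 44.4 and 43.7 counts of vehicle stood below the 77.0, 75.1 and 56.4 of etomoxir. Etomoxir samples were above vehicle in 3 of 3 for each of these genes, by log2 fold changes of 0.49 to 0.82.

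Some genes of the amino acid stress response were on the higher side. Of 37 listed ATF4 targets, all tested, 9 were higher at an unadjusted p under 0.05 (24.3%, against 0.907% of all genes) and 1, Ndrg1, was lower (2.70%, against 1.31%). The list's median log2 fold change was 0.20 (0.38 without vehicle replicate 2 and 0.12 without vehicle replicate 3), beside 0.01 for all genes, and 33 of the 37 lay above 0. In 13 members (35.1%, against 4.63% of all genes) all etomoxir samples were above both vehicle samples. The mean of the list, relative to vehicle, was 0.14 and -0.14 in vehicle replicates 2 and 3 and 0.39, 0.31 and 0.16 in etomoxir replicates 1, 2 and 3. Etomoxir replicate 3 was thus barely above vehicle replicate 2, and replicates 1 and 2 clearly so.

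The ATF4 targets higher at an unadjusted p under 0.05 included the pseudokinase gene Trib3, which ATF4 induces and which restrains it. Its normalized counts were 1827 and 1283 with vehicle and 3168, 2793 and 2235 with etomoxir (log2 fold change 0.81, SE 0.20, edgeR adjusted p 0.809). The cationic amino acid transporter gene Slc7a1 had 2075 and 1856 against 2862, 2925 and 2895 (0.55, SE 0.13, adjusted p 0.779), with etomoxir samples close together and well above vehicle. Atf3, a stress transcription factor, had 201 and 190 against 302, 317 and 264 (0.59, SE 0.16, adjusted p 0.944). Atf4 itself had 6299 and 6399 counts against 8201, 7811 and 8516, again without overlap (0.36, SE 0.13, adjusted p 1.00). Mthfd2, an enzyme of mitochondrial folate metabolism, had 2492 and 2230 against 3139, 3188 and 3169. For Chac1, which degrades glutathione, 724 and 495 stood against 1320, 1089 and 769, and for the cystine transporter gene Slc7a11 46.4 and 74.6 against 103, 110 and 214. Slc3a2, the heavy chain that this transporter needs, had 4635 and 3651 against 6722, 5792 and 4680. In all of these genes the 3 etomoxir samples exceeded both vehicle samples, though for Chac1 and Slc3a2 etomoxir replicate 3 did so by little over vehicle replicate 2.

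Since 9 members of this list were higher at an unadjusted p under 0.05, their promoters were searched for the ATF4 motif together with those of the other members. ATF4 binds composite sites with C/EBP proteins, spelled TGATGNAA here and searched on both strands in the 250 bases before the start of each gene. The motif was in 1134 of 32851 promoters (3.45%) and, counted by gene, in 1056 of 27025 genes (3.91%). The list is made of ATF4 targets, so its own share of the motif describes the list and not a response to etomoxir. Of the 37 ATF4 targets 32 matched the promoter table by symbol, and 10 held the motif (31.2%). Among them are Fgf21, Atf3, Chac1 and Slc7a11, whose promoters are shown since these genes were higher with etomoxir at an unadjusted p under 0.05, 5′ to 3′ on the strand of the gene, with the matches in capitals. The sequences are from RefSeq on GRCm38.p6 (chr7:45615491-45615740, minus strand, for Fgf21; chr1:191183334-191183583, minus strand, for Atf3; chr2:119350992-119351241, plus strand, for Chac1; chr3:50443614-50443863, minus strand, for Slc7a11).
Fgf21: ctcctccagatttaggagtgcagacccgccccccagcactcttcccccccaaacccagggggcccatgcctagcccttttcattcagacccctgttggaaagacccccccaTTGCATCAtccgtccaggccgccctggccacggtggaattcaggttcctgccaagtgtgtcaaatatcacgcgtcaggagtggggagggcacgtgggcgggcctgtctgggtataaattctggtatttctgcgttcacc
Atf3: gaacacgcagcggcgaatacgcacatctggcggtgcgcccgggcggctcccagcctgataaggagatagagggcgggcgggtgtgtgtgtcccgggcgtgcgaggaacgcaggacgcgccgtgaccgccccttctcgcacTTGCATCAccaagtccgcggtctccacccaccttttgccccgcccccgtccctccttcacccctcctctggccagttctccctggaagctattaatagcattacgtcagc
Chac1: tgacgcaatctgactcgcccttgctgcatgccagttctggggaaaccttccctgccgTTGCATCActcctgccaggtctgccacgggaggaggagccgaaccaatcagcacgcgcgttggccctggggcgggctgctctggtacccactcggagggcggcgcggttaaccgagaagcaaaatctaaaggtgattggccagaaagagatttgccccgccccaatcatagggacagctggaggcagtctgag
Slc7a11: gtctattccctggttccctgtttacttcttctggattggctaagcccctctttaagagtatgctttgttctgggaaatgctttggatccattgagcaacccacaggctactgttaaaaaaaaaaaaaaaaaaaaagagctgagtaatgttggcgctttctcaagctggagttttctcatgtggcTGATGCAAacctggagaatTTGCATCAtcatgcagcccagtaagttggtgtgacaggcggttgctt
The match lies at -139 to -132 from the gene start in Fgf21, at -110 to -103 in Atf3 and at -193 to -186 in Chac1, each on the opposite strand, so it reads there as the reverse complement. Slc7a11 has matches at -66 to -59 on its own strand and at -47 to -40 on the opposite one. The other list members with the motif, Asns, Pycr1, Nupr1, Vldlr, Gars and Aars, were not higher with etomoxir at an unadjusted p under 0.05. Atf4, Trib3, Slc7a1, Mthfd2 and Slc3a2 were higher at that p and are not among the members with the motif, though some list members had no promoter entry. A match in these letters describes the sequence and shows no binding.

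Genes of sterol and fatty acid synthesis lay on the lower side, as a group and by small amounts. None was called in the reported edgeR fit. Sqle, whose product squalene epoxidase makes the first oxygenation step of sterol synthesis, had 3699 and 3736 normalized counts with vehicle and 2621, 2631 and 2577 with etomoxir. The replicates lay close together, and the groups were far apart. Its log2 fold change was -0.51 (SE 0.11, edgeR adjusted p 0.489). Fdps, which makes farnesyl diphosphate, had 1394 and 1276 against 982, 931 and 840, and Fdft1, which makes squalene, 1645 and 1606 against 1025, 1165 and 964; Fdft1 overlaps Ctsb, so reads may be shared. In all 3 genes the etomoxir samples were below both vehicle samples, with log2 fold changes of -0.54 for Fdps and -0.63 for Fdft1.

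Over the whole list of cholesterol synthesis and SREBP2 targets, 24 of 25 listed genes were tested and 24 of the 24 had a log2 fold change below 0, as did 6191 of all 12786 genes. At an unadjusted p under 0.05, 7 were lower (29.2%, against 1.31% of all genes) and 0 were higher, by edgeR. In addition to the 3 above these included Lss (-0.43), Pmvk (-0.39) and Acat2 (-0.30), which act at other steps of the pathway. The list's median was -0.38. All etomoxir samples were below both vehicle samples in 10 members (41.7%, against 5.33% of all genes). The list's mean, relative to vehicle, was 0.04 and -0.04 in the vehicle samples and -0.41, -0.33 and -0.49 in the etomoxir samples. No etomoxir sample came near the vehicle samples in this mean, the clearest separation of the lists plotted by sample. Among the 16 members in the promoter table, the sterol element letters CACNCCAC were found in 2 (12.5%, Insig1 and Acat2), against 6.05% of genes, and the E-box CACGTG in 4 (25.0%), against 6.86%. Such shares were not particular to this list. In the other lists the sterol letters ran from 0% (lipid droplet proteins) to 20.0% (triglyceride synthesis). The E-box ran from 0% (lipid droplet proteins) to 36.4% (adrenergic and cAMP genes).

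De novo lipogenesis showed the same direction with more spread. Acaca, acetyl-CoA carboxylase 1, makes the malonyl-CoA that feeds fatty acid synthesis and inhibits CPT1. It had 3922 and 3543 normalized counts with vehicle and 2504, 2733 and 2518 with etomoxir, a log2 fold change of -0.53 (SE 0.14, edgeR adjusted p 0.809), with the groups well apart. Of 21 members of the list, 4 were lower at an unadjusted p under 0.05 (19.0%, against 1.31% of all genes) and 0 higher (against 0.907%), and the median was -0.23. The others were the desaturase gene Scd2 (-0.74), the lipogenic factor gene Thrsp (-0.88) and Acly (-0.46), which makes cytosolic acetyl-CoA. Fasn, the fatty acid synthase gene, had a log2 fold change of -0.83, but its vehicle samples differed widely (109176 and 67610 counts, against 63989, 53141 and 32429), and its unadjusted p was 0.053. The list's mean was 0.11 and -0.11 with vehicle and -0.26, -0.19 and -0.28 with etomoxir.

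**Figure D3:**
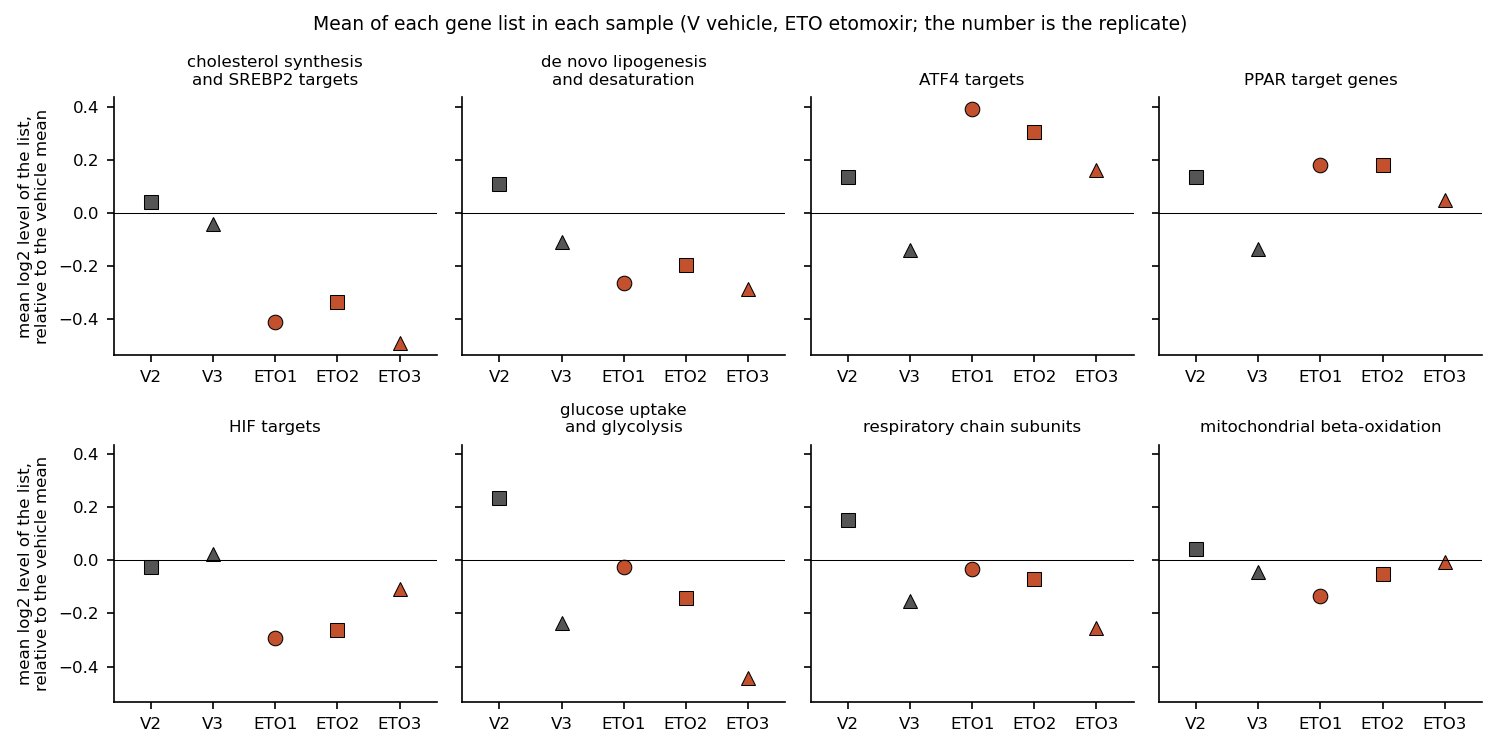
Mean log2 normalized count of selected gene lists in each of the 5 samples, relative to the mean of the vehicle samples, with the replicate number in the label and the symbol. The cholesterol list runs from -0.49 to -0.33 in etomoxir and from -0.04 to 0.04 in vehicle, while for glycolysis, the respiratory chain and PPAR targets the vehicle samples span much of the range of the etomoxir samples.

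The plot of list means by sample shows which of these shifts exceed the distance between the vehicle samples. Further single genes on the lower side included Ndrg1, a stress and hypoxia-responsive gene, with 352 and 374 normalized counts in vehicle and 225, 209 and 186 in etomoxir (log2 fold change -0.82, SE 0.16, edgeR adjusted p 0.279). Irf4, a transcription factor that drives lipolysis and thermogenic genes in fat, had 1151 and 1222 against 722, 694 and 879 (-0.64, SE 0.12, adjusted p 0.279). In both genes the etomoxir samples were below vehicle without overlap, with etomoxir replicate 3 the highest of its group for Irf4 and the lowest for Ndrg1. Glul, glutamine synthetase, had 4745 and 4183 against 3064, 3080 and 3158. Jarid2, a partner of the Polycomb complex, had 1292 and 1276 against 866, 872 and 852. Slc43a1, an amino acid transporter gene, had 490 and 346 against 256, 244 and 211. The log2 fold changes of these 3 were -0.53, -0.58 and -0.82, with an adjusted p of 0.809 each and 3 of 3 etomoxir samples lower. Bhlhe40, a clock-linked repressor, had 1893 and 1847 against 1272, 1278 and 1279 (-0.56, adjusted p 1.00).

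The enzymes on the blocked route itself were mostly level. Cpt1a (NM_013495, chr19:3323301-3385733, plus strand, 19 exons) encodes the CPT1 form of liver and many other tissues and is a PPAR target. It had 911 and 847 normalized counts with vehicle and 1670, 1246 and 1218 with etomoxir. All etomoxir samples were above both vehicle samples, replicate 1 by the most. The log2 fold change was 0.65 (SE 0.21, edgeR unadjusted p 0.00936, adjusted p 1.00). The muscle form gene Cpt1b, also found in brown fat, had 41.4 and 38.6 against 39.8, 39.2 and 30.5 (log2 fold change -0.13, 95% interval -0.62 to 0.36). Cpt1c, of the brain form, had 229 and 170 against 285, 170 and 120, so the groups overlapped widely, and its log2 fold change was -0.05. Cpt2, the inner membrane enzyme that etomoxir does not target, had 3032 and 2500 against 3138, 2762 and 2537 (0.02, 95% interval -0.31 to 0.35).

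None of the 19 genes of mitochondrial β-oxidation passed an unadjusted p of 0.05 in edgeR or the adjusted threshold, and their log2 fold changes ran from -0.22 to 0.11 with a median of -0.06. The carnitine shuttle list had 1 of 17 higher (Cpt1a) and 1 lower (Acaca), against 0.907% and 1.31% of all genes, with a median of 0.02, and the 19 peroxisomal oxidation genes had 0 past that p with a median of -0.04. Pdk4, a kinase that turns off pyruvate dehydrogenase when fat is used and a gene the study names, had 1402 and 1417 counts with vehicle and 1749, 2138 and 2481 with etomoxir. All etomoxir samples were above vehicle, by a log2 fold change of 0.58 (SE 0.19, edgeR adjusted p 1.00). Plin2, a lipid droplet coat gene also named by the study, had 6803 and 4617 against 7921, 6684 and 5158, which overlap (0.20, SE 0.23). Ffar4, a fatty acid receptor gene, had 581 and 477 against 460, 360 and 350 (-0.44, SE 0.33), with all etomoxir samples below vehicle.

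PPAR targets as a list had a few higher members and a median near that of all genes. Of 37 tested, 5 were higher at an unadjusted p under 0.05 (13.5%, against 0.907%) and 0 lower, with a median of 0.07 (0.18 without vehicle replicate 2 and 0.013 without vehicle replicate 3). The 5 were Fgf21, Angptl4, Pdk4, Cpt1a and Acot2 (0.44), a mitochondrial acyl-CoA thioesterase. All etomoxir samples were above both vehicle samples in 9 members (24.3%, against 4.63%). The list's mean was 0.14 and -0.14 in the vehicle samples and 0.18, 0.18 and 0.05 in the etomoxir samples, so vehicle replicate 2 lay among the etomoxir samples. The NRF2 antioxidant list, to which Hmox1 belongs, had 3 of 28 higher at that p (10.7%; Hmox1, Slc7a11 and Osgin1, 0.83). Its median was -0.04, and 0.16 without vehicle replicate 2. In 7 members (25.0%, against 4.63%) all etomoxir samples were above both vehicle samples, and the list's mean was 0.09 and -0.09 with vehicle and 0.19, 0.11 and 0.13 with etomoxir, so that etomoxir replicate 2 was little above vehicle replicate 2. For the NRF2 target Nqo1, 220 and 139 stood against 180, 215 and 245, which overlap (0.24, SE 0.24).

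Lists of glucose use had medians below 0, of which that of glycolysis depended on a single sample. HIF targets had 3 of 24 lower at an unadjusted p under 0.05 (12.5%, against 1.31% of all genes; Ndrg1, Ankrd37, which overlaps Ufsp2, and Mxi1) and a median of -0.21 (-0.13 without vehicle replicate 2), with means of -0.02 and 0.02 in vehicle and -0.29, -0.26 and -0.11 in etomoxir. For glucose uptake and glycolysis 3 of 26 were lower (11.5%, against 1.31%), among them the insulin-regulated transporter gene Slc2a4 with 2283 and 1629 counts against 1375, 1298 and 1232, beside Pgam1 (-0.38) and Slc16a3 (-0.71). Its median was -0.23, but the vehicle samples lay at 0.24 and -0.24, with etomoxir at -0.02, -0.14 and -0.44, so vehicle replicate 3 fell within the etomoxir range, and the median was 0.04 without vehicle replicate 2 and -0.44 without vehicle replicate 3. Insulin signalling and FOXO genes had 3 of 21 lower (14.3%, against 1.31%, with the smallest p for the pseudokinase gene Trib1, -0.40) and a median of -0.19 (-0.29 without vehicle replicate 3).

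In the respiratory chain list 70 of the 78 genes lay below 0 with a median of -0.13 (0.05 without vehicle replicate 2), yet 0 passed an unadjusted p of 0.05 by edgeR in either direction. Its mean was 0.15 and -0.15 in vehicle and -0.03, -0.07 and -0.25 in etomoxir, so the vehicle samples differed by more than the groups. The 19 citric acid cycle genes had 0 past that p and a median of -0.14, and the 23 thermogenic genes tested 0 and a median of -0.12; without vehicle replicate 2 these medians were 0.04 and 0.02. In the latter the coactivator gene Ppargc1a had a log2 fold change of 0.38 (SE 0.27).

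**Figure D4:**
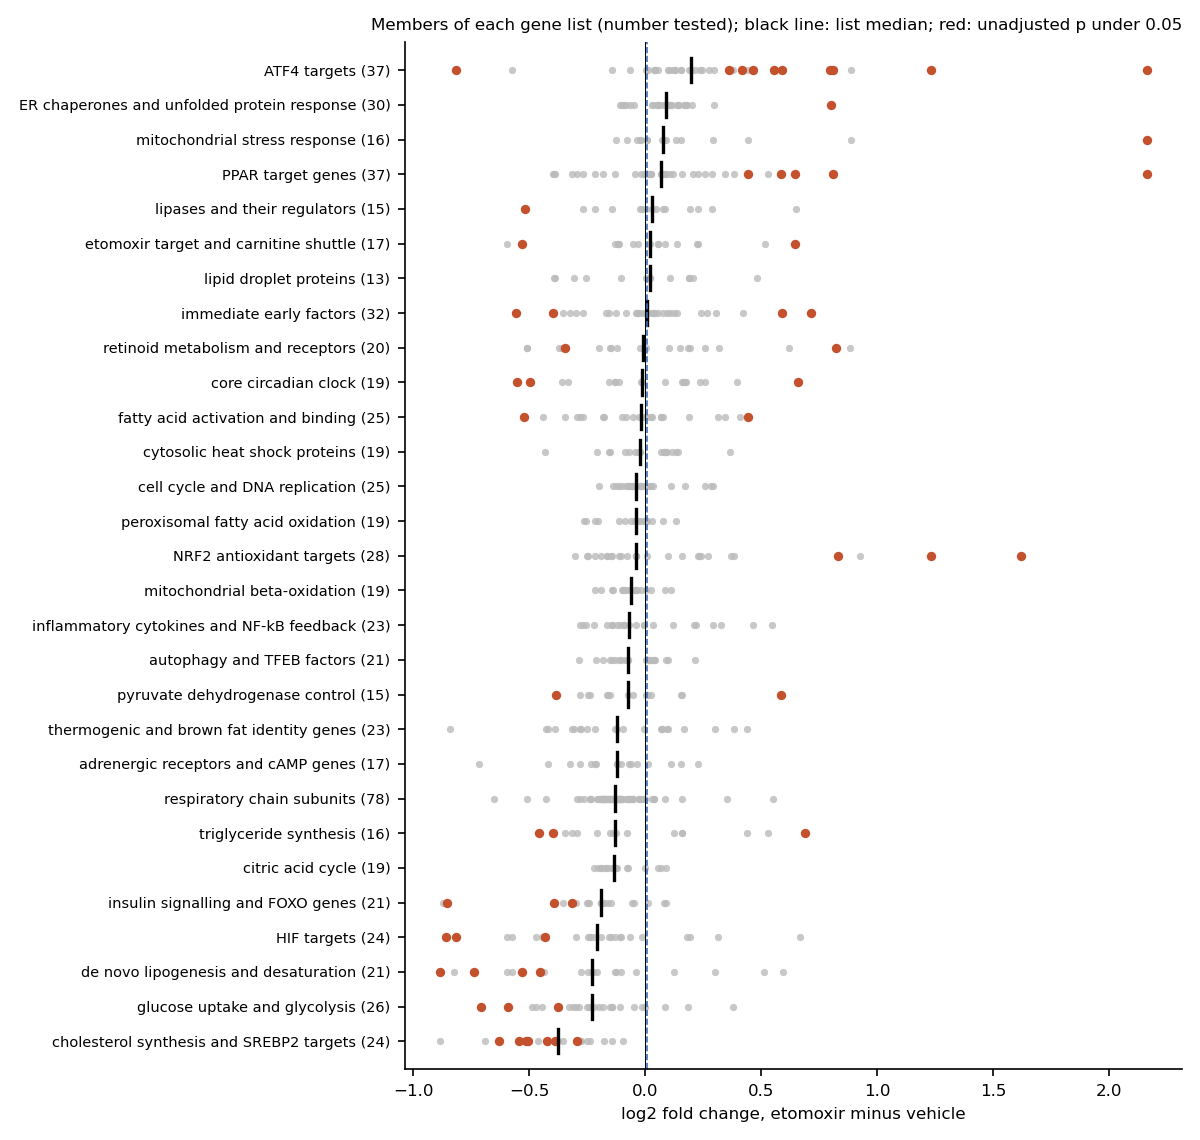
Log2 fold change (etomoxir minus vehicle) of each member of the gene lists other than marker lists, ordered by the list's median (black bar), with the number tested in parentheses, red points at an unadjusted p under 0.05, and a dashed line at the median of all genes. ATF4 targets are at the top with a median of 0.20 and cholesterol synthesis at the bottom with -0.38.

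The plot of all lists orders them by median. The remaining lists had no more than 2 members past an unadjusted p of 0.05 in either direction, where 0.907% of all genes were higher and 1.31% lower, so the whole of each is given by its median. These were 0.02 for lipid droplet proteins, 0.03 for lipases (1 of 15 lower, Pnpla3, -0.52), -0.02 for fatty acid activation and binding (1 of 25 higher, Acot2, and 1 lower, the acetyl-CoA synthetase gene Acss2, -0.52) and -0.13 for triglyceride synthesis (1 of 16 higher, Agpat9, 0.69, and 2 lower, with the acyltransferase gene Gpam at -0.46). For pyruvate dehydrogenase control the median was -0.08 (Pdk4 higher and the phosphatase gene Pdp2 lower, -0.38, of 15), for the mitochondrial stress response 0.07 (Fgf21 of 16) and for ER chaperones 0.09 (Ero1lb, an oxidoreductase gene, of 30 higher, 0.80). Heat shock proteins had -0.02, with 0 of 19. Immediate early factors had 0.01 (2 of 32 each way, with Spry4 and the AP-1 gene Fosl2, -0.40), the circadian clock -0.01 (of 19, Ciart higher and 2 lower, with the smallest p for Bhlhe40) and retinoid genes -0.01 (Cyp26b1 higher and the receptor gene Rarg lower, -0.35, of 20). Inflammatory genes had -0.07, adrenergic and cAMP genes -0.12, autophagy genes -0.07 and cell cycle genes -0.04, each with 0 members past that p. Marker lists had medians of -0.15 for adipocytes (1 of 12 lower, Slc2a4), -0.06 for fibroblasts, 0.32 for leukocytes (1 of 4 higher, Cd79a, with at most 9.96 normalized counts in any of the 5 samples), -0.03 for endothelium and 0.15 for muscle. Leaving out 1 sample, the median ran from -0.21 to 0.24 for lipid droplet proteins. For markers it ran from -0.32 to 0.05 for adipocytes, -0.19 to 0.07 for fibroblasts and -0.07 to 0.78 for leukocytes. It ran from -0.13 to 0.39 for endothelium and -0.36 to 0.68 for muscle. The adipocyte mean was 0.14 and -0.14 in vehicle replicates 2 and 3 and 0.003, -0.31 and -0.23 in etomoxir replicates 1, 2 and 3.

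The same inhibitor was also given to cells stimulated by SR-3420, a ligand of ABHD5, the activator of the lipase ATGL, that sets off lipolysis. This comparison, etomoxir + SR-3420 (3 samples) against SR-3420 (2 samples), shares no sample with the one above and asks whether its differences recur. In the same model of 6 groups, which has no covariate, edgeR called 0 genes raised and 1 lowered (0.00782%), Pfkfb1. At an unadjusted p under 0.05 there were 385 genes higher (3.01%) and 894 lower (6.99%). With a block for the replicate number edgeR called 761 raised and 1077 lowered, though the labels do not say what a number stands for. DESeq2 without the block called 10 raised and 83 lowered. Pfkfb1, whose enzyme makes and breaks down an activator of glycolysis, had 379 and 386 normalized counts with SR-3420 and 181, 195 and 208 with etomoxir + SR-3420, about 2-fold apart without overlap (log2 fold change -0.99, SE 0.13, adjusted p 0.0461). That call was lost in 4 of 5 fits that left out a sample, with adjusted p from 0.0277 to 0.625, with no filter on low counts (0.133) and in the fit of the compared samples alone (0.700), over a full range of 1.00e-10 to 0.700. Without SR-3420 its counts were 584 and 528 against 460, 464 and 492 (-0.24, adjusted p 1.00).

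The 3 genes called with etomoxir alone did not differ in this way in stimulated cells. Hmox1 had 12516 and 15136 normalized counts with SR-3420 and 15379, 20190 and 15741 with etomoxir + SR-3420, so all of these samples exceeded the etomoxir samples without SR-3420 (log2 fold change 0.30, SE 0.15, edgeR adjusted p 0.525). For Fgf21, 136 and 126 stood against 138, 136 and 145 (0.08, SE 0.17, adjusted p 0.811). Bmf had 37.3 and 16.5 against 36.5, 23.9 and 24.5 (0.07, SE 0.29, adjusted p 0.905). SR-3420 alone thus put Fgf21 and Bmf further from vehicle than etomoxir alone did, and etomoxir added little to it. The test of the difference between the etomoxir effects with and without SR-3420 gave log2 values of -1.32 (adjusted p 0.211) for Hmox1, -2.08 (0.0692) for Fgf21 and 2.23 (0.317) for Bmf. Over all genes edgeR without a covariate called 0 such differences, with 307 at an unadjusted p under 0.05. With a block for the replicate number it called 3, Hmox1, Fgf21 and Bmf. DESeq2 without the block called 9, Hmox1, Fgf21, Bmf, Ndrg1, Prelp, Spry4, Pfkfb1, Rap1gap2 and Fga.

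**Figure D5:**
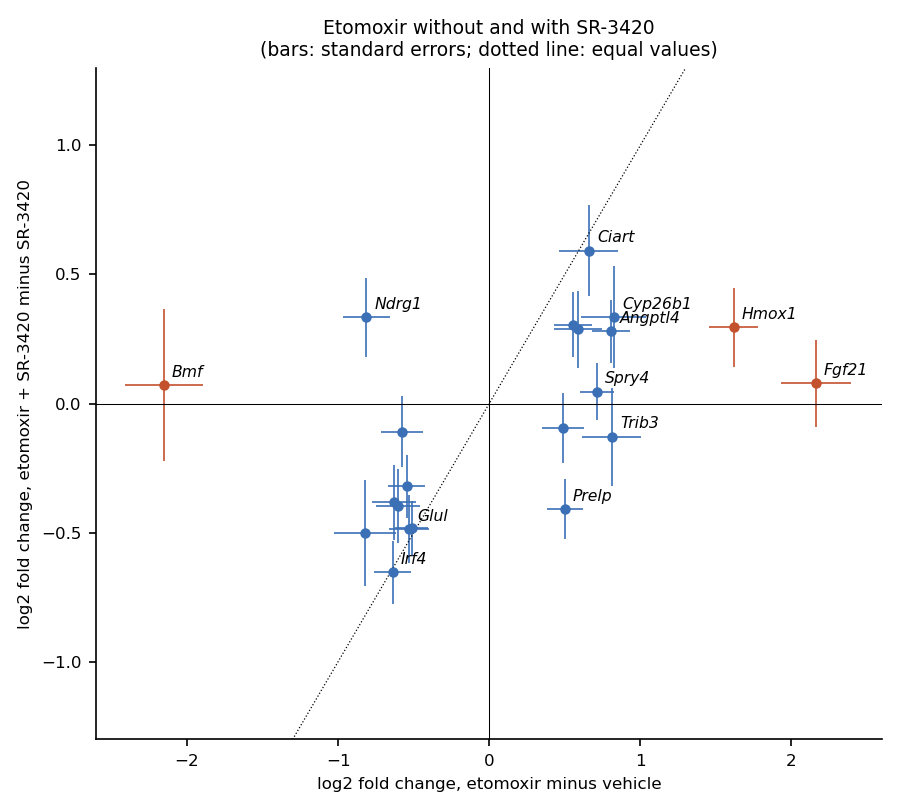
Log2 fold change of etomoxir without SR-3420 (across) and with SR-3420 (upward) for the called genes and the genes with the smallest p, with standard errors as bars and a dotted line at equal values. Hmox1, Fgf21 and Bmf (red) lie far from 0 across and near 0 upward, while Irf4 and Glul lie near the dotted line.

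The plot of both etomoxir comparisons sets the log2 fold changes of these genes side by side. For single genes edgeR without a covariate called no difference between the settings, and with the replicate block it called Hmox1, Fgf21 and Bmf. Irf4 had 586 and 569 normalized counts with SR-3420 and 340, 387 and 384 with etomoxir + SR-3420, again without overlap (log2 fold change -0.65, SE 0.12, edgeR adjusted p 0.141), beside -0.64 without SR-3420. Sqle had 2403 and 2683 against 1701, 1868 and 1943 (-0.48, SE 0.11, adjusted p 0.195), beside -0.51. Glul (-0.49, beside -0.53) and Acaca (-0.57, beside -0.53) were similar in both settings. Ndrg1 had 795 and 1018 against 1074, 1274 and 1112, so that its log2 fold change was 0.33 with SR-3420 and -0.82 without (difference 1.15, adjusted p 0.377). Cpt1a, with 2065 and 1635 against 2317, 1789 and 1463, had a log2 fold change of -0.01. Ffar4, with 1927 and 1352 against 525, 222 and 670, lay lower in all 3 samples (-1.81, SE 0.33, adjusted p 0.141). The study gives Ffar4 and Cyp26b1 as examples of genes whose rise with lipolysis needs fatty acid activation or oxidation. For Cyp26b1 the log2 fold change in stimulated cells was on the other side, 0.34 (edgeR unadjusted p 0.113).

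Of the 167 genes lower with etomoxir alone at an unadjusted p under 0.05, 140 (83.8%) also had a log2 fold change below 0 in stimulated cells, as did 50.1% of all genes, and 65 (38.9%) were lower there at that p. Of the 116 higher genes 69 (59.5%) were above 0 in stimulated cells, beside 49.9% of all genes, and 13 (11.2%) were higher at that p. Among all genes, 6.99% were lower and 3.01% higher at that p in stimulated cells, and the difference between the sides was not tested. The cholesterol list had 12 of 24 lower at an unadjusted p under 0.05 in stimulated cells (50.0%, against 6.99% of all genes), 0 higher and a median of -0.37, where all genes had -0.000492. De novo lipogenesis had 6 of 21 lower (28.6%) and a median of -0.30. ATF4 targets had 6 of 37 higher (16.2%, against 3.01%), 0 lower and a median of 0.13. Among the genes whose promoters are printed above, the log2 fold change in stimulated cells was 0.91 for Slc7a11, 0.29 for Chac1, 0.29 for Atf3 and 0.08 for Fgf21. Mitochondrial β-oxidation had 9 of 19 lower (47.4%) and a median of -0.34, the respiratory chain 23 of 78 lower (29.5%) and a median of -0.37, and PPAR targets 12 of 37 lower, 2 higher and a median of -0.21. Markers of mature adipocytes were also lower there, 7 of 12 at that p (58.3%) and all 12 below 0, with a median of -0.74, while those of preadipocytes and fibroblasts had 0 of 10 and a median of 0.09. Relative to SR-3420, the adipocyte mean was 0.28 and -0.28 in SR-3420 replicates 1 and 3 and -0.30, -1.11 and -0.44 in etomoxir + SR-3420 replicates 1, 2 and 3, and the PPAR mean 0.11 and -0.11 against -0.23, -0.59 and -0.16. For β-oxidation -0.065 and 0.065 stood against -0.35, -0.50 and -0.057, so replicate 3 lay within the SR-3420 samples, and replicate 2 was the lowest in these 3 lists. Whether these lists differed between resting and stimulated cells was not tested.

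Triacsin C blocks fatty acid use a step earlier, before acyl-CoA is made, and its effect in resting cells was much wider. Against the same vehicle samples, it raised 610 genes (4.77%) and lowered 887 (6.94%) at an adjusted p under 0.05, with a median size of log2 fold change of 0.30 beside 0.13 for etomoxir. The inhibitors share the vehicle samples, so their values are set side by side and no overlap is counted. Hmox1 had 37163, 39367 and 37602 normalized counts with triacsin C, the highest of the 3 groups without SR-3420 (log2 fold change 3.55 against vehicle, beside 1.62 for etomoxir). Fgf21 had 35.2, 38.2 and 44.7 (1.98, beside 2.16) and Bmf 61.5, 70.8 and 67.6 (-2.13, beside -2.15). The samples of both inhibitors lay close together for Fgf21 and Bmf and far apart for Hmox1.

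Compared directly, etomoxir against triacsin C with 3 samples each and no vehicle sample, edgeR called 1125 genes higher (8.80%) and 1033 lower (8.08%) with etomoxir. Hmox1 was lower with etomoxir by 1.93 on the log2 scale (log2 fold change -1.93, SE 0.14, adjusted p 2.61e-06), with all 3 samples below. For Fgf21 the difference was 0.18 (95% interval -0.19 to 0.55, adjusted p 0.550) and for Bmf -0.02 (95% interval -0.55 to 0.51, adjusted p 0.962). Angptl4, with 8538, 7760 and 8431 counts under triacsin C, was lower with etomoxir in all samples (-0.69, SE 0.11, adjusted p 0.000776). Sqle had 4506, 4356 and 4365 with triacsin C, above both vehicle samples, and was lower with etomoxir (-0.78, SE 0.10, adjusted p 0.000119). The cholesterol list had 11 of 24 genes called lower with etomoxir than with triacsin C and 0 higher, with a median of -0.62; against vehicle its median was -0.38 with etomoxir and 0.28 with triacsin C. Jarid2 went the other way, higher with etomoxir than with triacsin C (1.69, SE 0.13, adjusted p 3.43e-06), and against vehicle it had -0.58 with etomoxir and -2.27 with triacsin C.

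Genes that lipolysis raises under triacsin C were looked up in a list drawn from samples that neither etomoxir comparison uses. It holds 670 genes with a log2 fold change of at least 1 and an adjusted p under 0.05 for triacsin C + SR-3420 against triacsin C. With etomoxir alone 19 of them were higher at an unadjusted p under 0.05 (2.84%, against 0.907% of all genes) and 11 lower (1.64%, against 1.31%), with a median of 0.09 beside 0.01, and of 0.035 when no minimum fold was asked for. The list's mean was -0.04 and 0.04 in the vehicle samples and 0.01, 0.07 and 0.18 in the etomoxir samples, so vehicle replicate 3 lay among the etomoxir samples. In stimulated cells 119 were higher (17.8%, against 3.01%) and 4 lower (0.597%, against 6.99%), with a median of 0.32, and the difference between the settings was not tested for the list.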

How the data were processed

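RNA-seq of 16 samples was used as raw counts per gene that the authors deposited for 20295 genes. They had aligned reads to mm9 with STAR 2.4.2a, removed reads alike in position and length with HOMER, and counted with iRNA-seq; strand use is not given in the sources used here. That step limits high counts of short genes, yet 204 genes (1.01%), Hmox1 among them with 11.6, exceed 2 counts per base of gene span in a sample. The replicates are independent experiments by the study. Vehicle replicate 1 and SR-3420 replicate 2 were not analysed here. For SR-3420 the labels give 10 µM and the study's text another dose.

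Counts were fitted in R 4.3.3 with edgeR 4.0.16 (TMM, filterByExpr, quasi-likelihood test, 6 group means, no covariate) with Benjamini-Hochberg adjustment over 12786 genes. Standard errors are the log2 fold change divided by the root of the F statistic. Per-sample values use size factors of DESeq2 1.42.0. Correlations and list means use log2 normalized counts with a pseudocount of 1. Python 3.11.15 and matplotlib 3.10.9 drew the figures. The methods were tested on simulated data. In gene positions 1 was added to the start.

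Genes named are those past the adjusted threshold, the 10 in each direction with the smallest p among genes that averaged 50 or more normalized counts and whose groups do not overlap, the CPT genes, Pdk4, Plin2, Ffar4 and Cyp26b1, Ucp1, Fgf21 and Angptl4, and the member of each of 34 lists with the smallest p in each direction, here only where that p is under 0.05. Some of these genes are not reported here. Others, list members among them, were chosen after their values were seen. The comparison and the lists were chosen with earlier results of these data known. The lists hold 781 genes, 2 of them (Hmgcs1 and Sels) without a match in the table. Lists were described without a test. Promoters were searched for 4 motifs, the CARE, E-box, sterol and forkhead (TGTTTAC) letters.

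Alternatives were DESeq2's size factors in edgeR, DESeq2's Wald test, no filter or at least 10 counts in every sample, the compared groups alone, leaving out each sample, a block for the replicate number, a log2 fold change of at least 1, leaving out overlapping genes from the lists, and no fold minimum for lipolysis-raised genes. DESeq2 with the block was added after seeing the data.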

Additional observations from a re-analysis of the deposited data

How the results depend on the processing

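Counts of called genes are given as raised and lowered by etomoxir alone, 2 and 1 as reported. DESeq2's size factors in edgeR gave 3 and 1 (Angptl4 added), DESeq2's Wald test gave 7 and 10, at least 10 counts in every sample 1 raised (Fgf21 is not tested there), and the compared groups alone 0 and 0. Leaving out a sample gave 0 to 2 and 0 to 1. In SR-3420-treated cells 0 were raised and 1 lowered; DESeq2 gave 10 and 83, no filter 0 lowered, the compared groups alone 0 lowered, a log2 fold change of at least 1 also 0 lowered, and leaving out a sample 0 to 12 lowered. The 12 came without etomoxir + SR-3420 replicate 3. DESeq2 found 9 genes whose etomoxir effect differed with SR-3420, and edgeR 0. Requiring a log2 fold change of at least 1 left 705 of 1497 genes for triacsin C and 800 of 2158 for etomoxir against triacsin C. Fewer samples or genes in a fit change its pooled spread and its adjustment; other causes were not tested.

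With a replicate block, edgeR called 4 raised and 2 lowered alone, 761 and 1077 in SR-3420-treated cells, 3 differing effects (Hmox1, Fgf21 and Bmf), 3072 genes for triacsin C and 4994 between the inhibitors; DESeq2 with the block gave 25 and 68, 1710 and 1352, 15, 3268 and 5097. The compared groups alone with the block, with 1 residual degree of freedom, gave 2174 and 1671, and 1331 and 722. Whether equal numbers mark paired experiments was checked on deviations from group means: same-numbered samples had a mean r of 0.386 across genes (35 pairs, -0.275 to 0.801, 8 at 0.1 or less, each with triacsin C replicate 1 or etomoxir + SR-3420 replicate 2), others -0.191 (71 pairs), and 11 of 16 samples were most like one of their own number. The labels do not say what a number stands for.

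Of 1008 values of single genes under alternatives, 860 kept their direction and side of the threshold. In 15 the sign changed, none of them in a called value. Leaving out a sample, log2 fold changes ran from -0.47 to 0.20 for Cpt1c, positive without vehicle replicate 2 (0.19), etomoxir replicate 2 (0.024) or etomoxir replicate 3 (0.20). They ran from -0.12 to 0.17 for Cpt2, negative without vehicle replicate 3 or etomoxir replicate 1 (-0.074), and from -0.58 to 1.495 for Ucp1, negative without the same samples (-0.56 for the latter). Plin2 ran from -0.052 to 0.52 and Nqo1 from -0.053 to 0.62, negative without vehicle replicate 3, and Lars2 from -0.22 to 1.64, negative without etomoxir replicate 1. In SR-3420-treated cells Bmf ran from -0.39 (without SR-3420 replicate 3) to 0.77 and had -0.16 without etomoxir + SR-3420 replicate 1. The compared groups with block gave -0.040 for Cpt2, -0.51 for Ucp1 and -0.19 for Lars2. The cause was not tested. List medians moved by less than 1 SD between replicates in 377 of 476 alternatives, with ranges of -0.48 to -0.31 for cholesterol synthesis, -0.32 to -0.17 for lipogenesis, 0.12 to 0.38 for ATF4 targets and 0.01 to 0.18 for PPAR targets. Leaving out a sample took other medians across 0, among them glycolysis (-0.44 to 0.04), the respiratory chain (-0.30 to 0.05), the citric acid cycle (-0.32 to 0.04), triglyceride synthesis (-0.33 to 0.04), thermogenic genes (-0.24 to 0.02) and NRF2 targets (-0.033 to 0.16). Depth limits low genes such as Ucp1 and Cd79a.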
